A study of Homo sapiens with 9 samples.

Results

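The BCL2 family genes that set the threshold for mitochondrial cell death were followed across 3 groups of HEK293 cells, a line derived from human embryonic kidney. The members were 9 genes chosen by name, with earlier results of these data known. They were the anti-apoptotic genes BCL2, BCL2L1, MCL1 and BCL2A1, the BH3-only genes BCL2L11, PMAIP1 and BBC3, and the pore-forming effectors BAX and BAK1. Each was read by the 1 probe set that the platform annotation gives its symbol, so 9 of the 53617 probe sets of the array were used, and all 9 passed the filter on low signal. RNA of each group was hybridised to 3 single-colour arrays. The mock group is naive HEK293 cells without cumate, the GPR39 group is HEK293 cells overexpressing GPR39 with cumate at 0.03 mg/mL, and the agonist group is HEK293 cells overexpressing GPR39 stimulated with TC-G-1008 at 1 uM. GPR39 belongs to the G protein-coupled receptors and responds to zinc, cumate switches on cumate-inducible transgenes, and TC-G-1008 is a small molecule made to activate GPR39. The labels name no exposure time, do not state whether the agonist cells also had cumate, and describe no cells given cumate or agonist without the receptor. They give the replicates as biological and do not say that each was its own culture, so the p-values rest on a spread between arrays that may be technical.

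BCL2 family proteins act at the outer mitochondrial membrane. BAX and BAK, once active, assemble into pores that release cytochrome c and start the caspase cascade. The anti-apoptotic proteins bind and restrain them, and the BH3-only proteins, made or activated under stress, occupy the anti-apoptotic proteins or activate the effectors directly. Binding is selective, and NOXA, the product of PMAIP1, pairs mainly with MCL1 and with BFL1, the product of BCL2A1, while BIM, the product of BCL2L11, binds all of the anti-apoptotic proteins. Splice forms of MCL1 and BCL2L1 can have the opposite function to the main form, and 1 probe set per gene does not tell them apart. Protein amount and activity were not measured.

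Array medians lay between 3.13 and 3.22 on the log2 scale, and the 40th percentile of an array, the level above which a probe set counted as passing in that array, between 2.63 and 2.70. Precision is limited by having 3 arrays a group. The probe set of GPR39 itself averaged 2.47 ± 0.07 (SD, n = 3) for mock cells, 2.58 ± 0.04 for the GPR39 group and 2.58 ± 0.11 for the agonist group, below the 40th percentile on all 9 arrays, so the labelled overexpression was not seen with it and the groups are called by their labels. The sources used here do not give where its probes lie relative to the introduced sequence. Of 11 genes listed as HEK293 markers 7 have a named probe set, and all 7 were above the 40th percentile on all 9 arrays. The fibroblast genes DCN and LUM were below it on all 9. Of 4 hepatocyte genes ALB was below it on all 9 and APOA1 and TTR above it on all 9, and of 3 endothelial genes PECAM1 was below it and KDR above it on all 9. Mock replicate 1 stood nearer to the GPR39 arrays (mean r = 0.988 across probe sets) than to its own group (mean r = 0.985). The members' changes against mock are therefore also given without it.

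The sequences just before the annotated starts of 4 members are shown because these are the members with an entry in the RefSeq promoter table whose messages rose in the agonist group and, for contrast, BCL2, which fell. The 250 bases are written 5′ to 3′ on the strand of the gene in build GRCh38.p14, with capitals marking any match to the motifs searched.
BCL2A1, chr15:79971197-79971446, - strand: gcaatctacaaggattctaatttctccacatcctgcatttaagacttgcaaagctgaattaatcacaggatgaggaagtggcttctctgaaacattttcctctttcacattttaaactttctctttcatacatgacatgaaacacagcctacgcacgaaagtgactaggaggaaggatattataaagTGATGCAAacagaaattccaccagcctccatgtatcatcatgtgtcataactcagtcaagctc
PMAIP1, chr18:59899746-59899995, + strand: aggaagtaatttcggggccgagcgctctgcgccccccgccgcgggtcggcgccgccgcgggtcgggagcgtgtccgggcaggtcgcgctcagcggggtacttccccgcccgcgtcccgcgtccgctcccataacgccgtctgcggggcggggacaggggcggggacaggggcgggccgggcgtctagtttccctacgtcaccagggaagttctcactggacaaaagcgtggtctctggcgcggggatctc
BCL2L11, chr2:111120664-111120913, + strand: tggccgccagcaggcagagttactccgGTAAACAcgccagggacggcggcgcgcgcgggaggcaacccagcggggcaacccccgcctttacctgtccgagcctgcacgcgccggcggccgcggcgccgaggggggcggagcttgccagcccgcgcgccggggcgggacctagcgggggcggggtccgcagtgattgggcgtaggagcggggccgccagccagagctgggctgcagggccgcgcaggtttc
BCL2, chr18:63319770-63320019, - strand: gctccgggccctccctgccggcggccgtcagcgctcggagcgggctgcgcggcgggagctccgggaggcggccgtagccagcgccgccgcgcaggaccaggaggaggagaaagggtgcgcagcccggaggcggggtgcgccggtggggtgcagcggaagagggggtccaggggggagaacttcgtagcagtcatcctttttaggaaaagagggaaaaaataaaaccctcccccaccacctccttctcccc
The table matched 8 of the 9 members, and MCL1 was not matched. The motifs searched on both strands were the NF-kB consensus, the AP-1 site TGANTCA, the cAMP response element TGACGTCA, the C/EBP-ATF response element TGATGNAA and the FOXO site TGTTTAC. Among the 4 sequences shown, the BCL2A1 sequence held a C/EBP-ATF match that began 63 bases before the start, and the BCL2L11 sequence held a FOXO match on the opposite strand that began 223 bases before it. Of 35116 promoters of the same length in the table, 3.14% held the C/EBP-ATF letters and 2.98% the FOXO letters, and the shares for NF-kB, AP-1 and the cAMP element were 9.96%, 6.57% and 1.65%. No match was found in the PMAIP1 and BCL2 sequences, and none of the matches overlapped another. Of the members not shown, BBC3 held an AP-1 match that began 113 bases before its start. None was found for BCL2L1, BAX or BAK1. A match is only a run of letters in this window. The sequences also differ in base composition, with 38.8% G and C in BCL2A1 against 72.8% in PMAIP1, 76.8% in BCL2L11 and 70.0% in BCL2.

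The clearest movement among the 9 genes lay between the GPR39 and the agonist arrays. There 4 members rose, BCL2A1, MCL1, PMAIP1 and BCL2L11, and 3 fell, BCL2, BCL2L1 and BAX (limma, Benjamini-Hochberg adjusted p under 0.05 over 33376 probe sets tested), against 9.06% of all probe sets called in that comparison, 3.12% higher and 5.95% lower. The anti-apoptotic genes thus split, with 2 higher and 2 lower, and the BH3-only genes had 2 higher and none lower. The median change of the 9 was -0.075 on the log2 scale, beside 0.014 over all probe sets tested. From mock to GPR39 none of the 9 passed in limma, against 1.17% of all probe sets. At an unadjusted p under 0.05 there were 3 members. The share of all probe sets at an unadjusted p is not given, here or below, so such counts have no background. The median of the 9 was 0.12, beside 0.006 for all. From mock to agonist 3 rose and 3 fell, against 15% of all probe sets called, 6.11% higher and 8.94% lower, with medians of 0.048 for the members and 0.017 for all. Each pair of these comparisons shares a group of arrays, so the 3 sets of calls are not independent. The members were also chosen with earlier results of these data known, so their shares beside all probe sets are description, not a test. RNA was taken from whole cultures, in which fewer cells with a transcript and less of it per cell cannot be told apart. The effect of the receptor cannot be told apart from that of cumate, and the effect of the agonist from that of cumate being absent, if it was. As mock cells are labelled naive, changes against mock also cannot be told apart from other differences between naive and overexpressing cells.

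**Figure D1:**
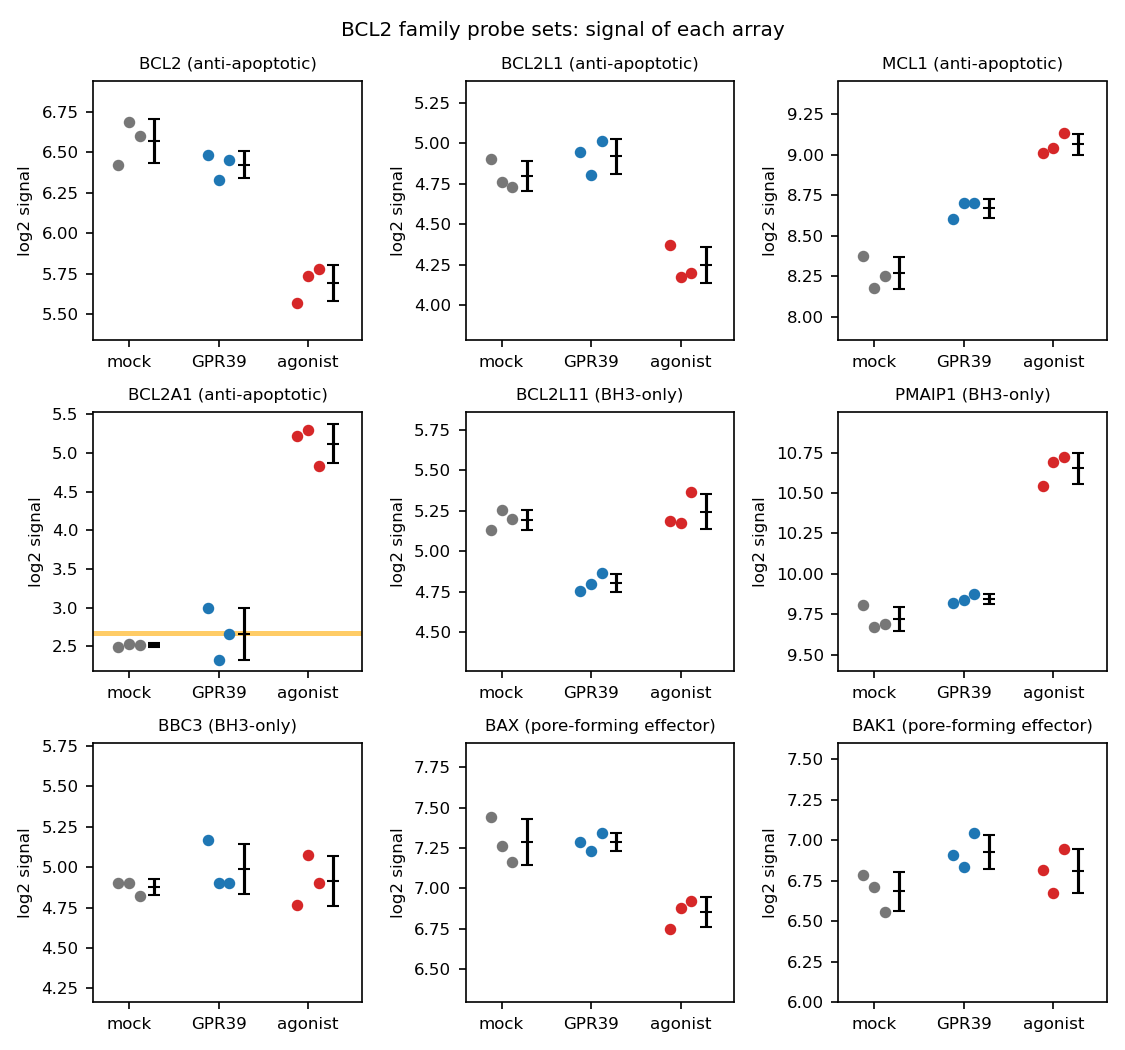
Log2 signal of each array for the 9 BCL2 family probe sets, 1 panel per gene, with mock, GPR39 and agonist arrays side by side and the group mean ± SD (n = 3) drawn to the right of the points; the vertical scale differs between panels, and the yellow band in the BCL2A1 panel is the range of the arrays' 40th percentiles. BCL2A1 lies above that band in the agonist group and in 1 GPR39 array, MCL1 climbs in both steps, and BCL2L11 is low in the GPR39 group alone.

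BCL2A1, which encodes the anti-apoptotic protein BFL1 and is best known as an NF-kB target of blood cells, showed the largest change of the 9. Its mock arrays read 2.49, 2.54 and 2.52, its GPR39 arrays 2.9998, 2.33 and 2.66, and its agonist arrays 5.23, 5.30 and 4.84. The mock arrays all lay at or below the 40th percentile, 1 of the 3 GPR39 arrays did, and the agonist arrays stood clear of both groups, so the probe set passed the filter through the agonist arrays. From GPR39 means of 2.66 to agonist means of 5.12 the rise was at least 2.35 on the log2 scale, or at least 5.11-fold, with each dimmer value replaced by its array's 40th percentile (adjusted p = 0.000272 in limma). Without a filter the adjusted p was 0.00030. Against mock the rise was at least 2.47 (adjusted p = 7.74e-05, 9.17e-05 without a filter and 0.00063 without mock replicate 1). Mock and GPR39 did not differ beyond their spread, with a fitted change of 0.15 ± 0.18 (SE) and a 95% interval from -0.26 to 0.56, and 0.14 without mock replicate 1.

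Because BCL2A1 is a blood cell gene, leukocyte markers were read beside it. Named probe sets exist for 5 of 8 listed markers. Their summed log2 signal ran from 19.1 to 19.7 in mock, 20.6 to 21.5 in the GPR39 group and 21.3 to 22.1 in the agonist group. CD68, a lysosomal glycoprotein gene also expressed outside blood cells, had means of 6.66, 7.56 and 7.90, and TYROBP, an immune receptor adaptor gene, 2.85, 3.34 and 3.53. CD14, the monocyte coreceptor gene, stayed between 2.69 and 2.99 on all arrays, close to the 40th percentile. SPI1 had means of 4.03, 4.23 and 4.36, and LAPTM5 3.10, 3.26 and 3.20. Of the 5 markers 4 were above the 40th percentile on all 9 arrays. The part of such cells in the BCL2A1 values was not tested.

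MCL1 encodes a short-lived anti-apoptotic protein that restrains BAK and BIM. It read 8.37, 8.18 and 8.25 in mock, 8.60, 8.70 and 8.70 in the GPR39 group and 9.01, 9.04 and 9.14 in the agonist group. The 3 groups did not overlap, and each step was of nearly the same size. The rise from GPR39 to agonist was 0.39 ± 0.08 (SE), or 1.31-fold (adjusted p = 0.0173 in limma). That call was lost without GPR39 replicate 1, 2 or 3 or agonist replicate 3 (adjusted p from 0.052 to 0.0674). From mock to GPR39 the change was 0.40 ± 0.08 and just missed the threshold (adjusted p = 0.0549 in limma). Without mock replicate 1 it was 0.46 and passed (adjusted p = 0.0281). Of the 16 alternatives run, 3 called this change and 13 did not, with adjusted p from 0.0182 to 0.194 in limma. Over both steps MCL1 stood 0.80 ± 0.08 higher in the agonist group than in mock, or 1.74-fold (adjusted p = 0.000423), and 0.85 without mock replicate 1.

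The founding anti-apoptotic gene of the family, BCL2, went the other way. Its arrays read 6.42, 6.69 and 6.60 in mock, 6.48, 6.33 and 6.45 in the GPR39 group and 5.57, 5.73 and 5.78 in the agonist group. Mock and GPR39 arrays overlapped, and every agonist array was below all 6 of them. BCL2 fell by 0.73 ± 0.10 on the log2 scale from GPR39 to agonist (adjusted p = 0.00389 in limma), a level 1.66-fold lower. Against mock the change was -0.88 ± 0.10 (adjusted p = 0.000827), and -0.95 without mock replicate 1. Between mock and GPR39 it was -0.15 ± 0.10, with a 95% interval from -0.37 to 0.073, and -0.22 without mock replicate 1 (adjusted p = 0.265).

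BCL2L1, whose main product is the anti-apoptotic protein BCL-XL, was also lowest in the agonist group. It read 4.90, 4.76 and 4.73 in mock, 4.95, 4.80 and 5.01 in the GPR39 group and 4.37, 4.17 and 4.20 in the agonist group. The agonist arrays were again below every other array. The change from GPR39 to agonist was -0.67 ± 0.09 (adjusted p = 0.00426 in limma), 1.59-fold lower, and from mock to agonist -0.55 ± 0.09 (adjusted p = 0.0053), or -0.497 without mock replicate 1. From mock to GPR39 it was 0.12 ± 0.09, with a 95% interval from -0.087 to 0.33, and 0.18 without mock replicate 1. The calls of BCL2 and BCL2L1 between agonist and each other group held under all 16 alternatives run, with adjusted p from 0.00185 to 0.0223 for BCL2 and from 0.00225 to 0.0233 for BCL2L1 against GPR39.

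**Figure D2:**
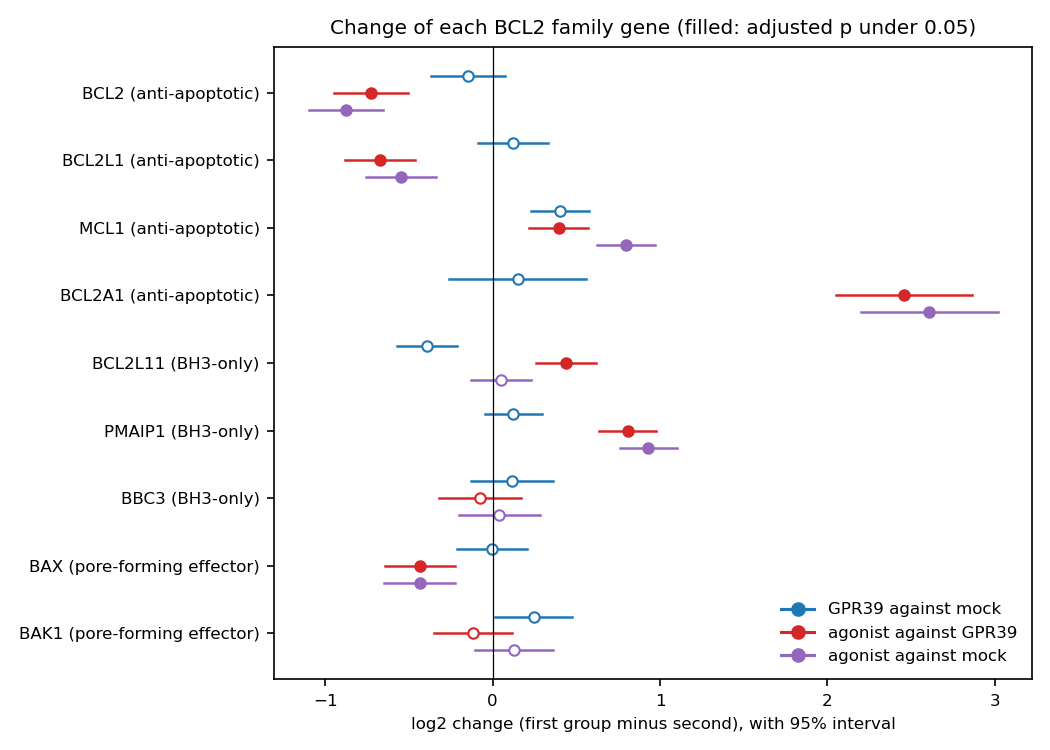
Log2 change of each of the 9 genes with its 95% interval from the limma fit, for GPR39 against mock (blue), agonist against GPR39 (red) and agonist against mock (purple); filled points have an adjusted p under 0.05. None of the blue points is filled, and the red points run from -0.73 for BCL2 to a fitted 2.46 for BCL2A1.

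Among the BH3-only genes PMAIP1, which encodes NOXA and responds to ATF4, rose most. It read 9.81, 9.67 and 9.69 in mock, 9.82, 9.84 and 9.88 in the GPR39 group and 10.54, 10.69 and 10.72 in the agonist group. All agonist arrays lay above the rest by at least 0.67. The rise from GPR39 was 0.81 ± 0.07 (SE), or 1.75-fold (adjusted p = 0.00081 in limma), and from mock 0.93 ± 0.07, or 1.91-fold (adjusted p = 0.000175), and 0.97 without mock replicate 1. Under the 16 alternatives the rise from GPR39 stayed between 0.77 and 0.86 with adjusted p of at most 0.00945. Only the other scalings and leaving out a GPR39 or agonist array can move the size of that rise. The difference between mock and GPR39 was 0.12 ± 0.07 (adjusted p = 0.486), or 0.17 without mock replicate 1 (adjusted p = 0.323), although the arrays of the 2 groups did not overlap, as for 20.7% of all probe sets.

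BCL2L11 encodes BIM, a BH3-only protein that ERK signalling marks for degradation and FOXO factors induce. Its arrays read 5.13, 5.25 and 5.20 in mock, 4.75, 4.80 and 4.86 in the GPR39 group and 5.19, 5.18 and 5.37 in the agonist group. The GPR39 arrays were the low ones, below all arrays of both other groups, and mock and agonist arrays overlapped. The rise from GPR39 to agonist was 0.44 ± 0.08, or 1.36-fold (adjusted p = 0.0123 in limma), and the call was lost without GPR39 replicate 1 or 2 (adjusted p = 0.0516 and 0.0501). The preceding step, mock to GPR39, was -0.39 ± 0.08 and missed the threshold (adjusted p = 0.0633). Without mock replicate 1 it was -0.42 and passed (adjusted p = 0.0459). Of the 16 alternatives run, 2 called this change and 14 did not, with adjusted p from 0.0347 to 0.199 in limma. Agonist and mock differed by 0.048 ± 0.08, with a 95% interval from -0.13 to 0.23, and by 0.016 without mock replicate 1.

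BBC3, which encodes the BH3-only protein PUMA, did not pass in any comparison. It read 4.90, 4.90 and 4.82 in mock, 5.17, 4.90 and 4.90 in the GPR39 group and 4.77, 5.08 and 4.90 in the agonist group. The 3 groups overlapped, and 4 of the 9 arrays shared exactly the same value. The 95% interval of its change was -0.13 to 0.36 from mock to GPR39, -0.32 to 0.17 from GPR39 to agonist and -0.20 to 0.28 from mock to agonist. Without mock replicate 1 the changes against mock were 0.13 for GPR39 and 0.053 for agonist. Of the 3 BH3-only genes it was the 1 that passed in none of the comparisons.

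The effector genes BAX and BAK1 also differed in their calls. BAX read 7.44, 7.26 and 7.16 in mock, 7.29, 7.23 and 7.34 in the GPR39 group and 6.75, 6.88 and 6.93 in the agonist group. Mock and GPR39 arrays were interleaved and the agonist arrays lay below them all. The change was -0.44 ± 0.09 (SE) from GPR39 to agonist (adjusted p = 0.0233 in limma) and likewise -0.44 ± 0.09 from mock (adjusted p = 0.0149), each 1.35-fold lower. The first call was lost without GPR39 replicate 1, 2 or 3 or agonist replicate 1 or 2 (adjusted p from 0.0539 to 0.0877). The second was lost without agonist replicate 1 (adjusted p = 0.0503), with centring on the 75th percentile (adjusted p = 0.0504) and in a fit of only the 2 groups (adjusted p = 0.0536), and was -0.36 without mock replicate 1 (adjusted p = 0.0323). From mock to GPR39 the change was -0.0016, and 0.076 without mock replicate 1.

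BAK1, the other effector, did not pass in any comparison. It read 6.79, 6.71 and 6.55 in mock, 6.91, 6.83 and 7.04 in the GPR39 group and 6.82, 6.67 and 6.94 in the agonist group. The GPR39 arrays lay just above the mock arrays, by 0.046 at the closest, and the agonist arrays overlapped both groups. The change from mock to GPR39 was 0.24 ± 0.10 (adjusted p = 0.311 in limma), from GPR39 to agonist -0.12 ± 0.10 and from mock to agonist 0.13 ± 0.10. Without mock replicate 1 the changes against mock were 0.30 and 0.18. BAK1 has 2 annotated pseudogenes, BAK1P1 and BAK1P2, and their share in its signal was not tested. Whether BAX and BAK1 changed by different amounts was not tested either.

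Leaving out 1 array moved the number of members called between agonist and GPR39 most when the array was from the GPR39 group. The count was 4 without GPR39 replicate 1 or replicate 2, 5 without replicate 3, 6 without any 1 agonist array and 7 without any 1 mock array. BCL2A1, PMAIP1, BCL2 and BCL2L1 were called in each of these fits, and the calls of MCL1, BCL2L11 and BAX were each lost in some of them. Over all 16 alternatives the changes of these 3 genes ran from 0.36 to 0.42, 0.38 to 0.47 and -0.47 to -0.38. Only the other scalings and leaving out a GPR39 or agonist array can move these changes.

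**Figure D3:**
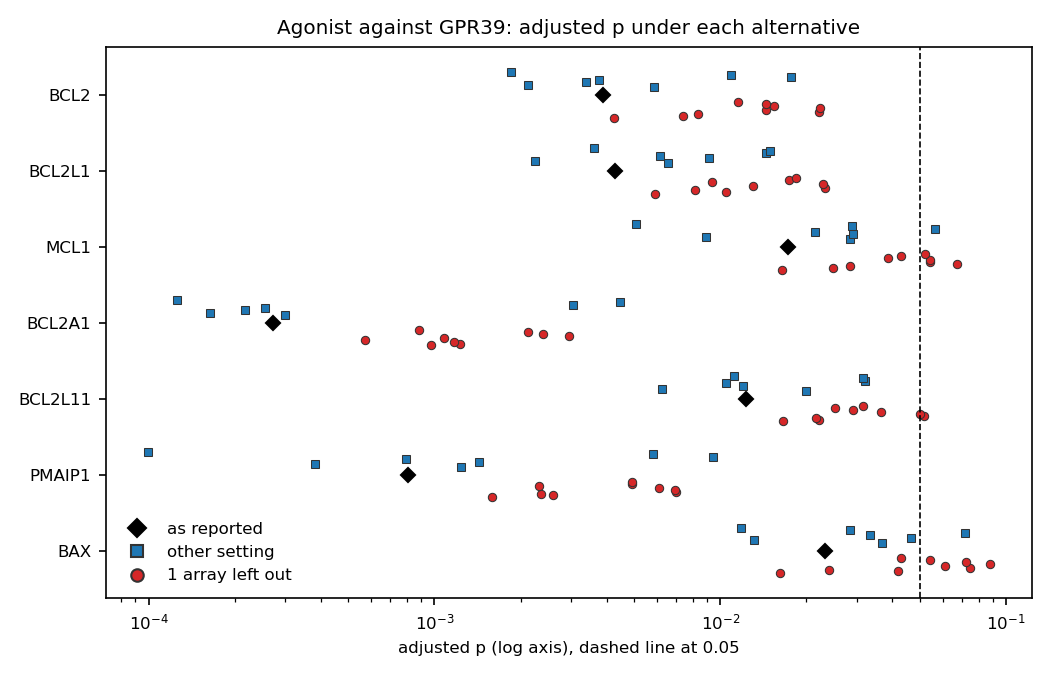
Adjusted p, on a log axis, of the 7 members called between agonist and GPR39, as reported (black diamonds), under 7 other settings (blue squares) and with each of the 9 arrays left out (red circles); the dashed line is at 0.05. BCL2A1, PMAIP1, BCL2 and BCL2L1 stay left of the line throughout, while MCL1, BCL2L11 and BAX cross it in 5, 2 and 6 of the 16 alternatives.

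**Figure D4:**
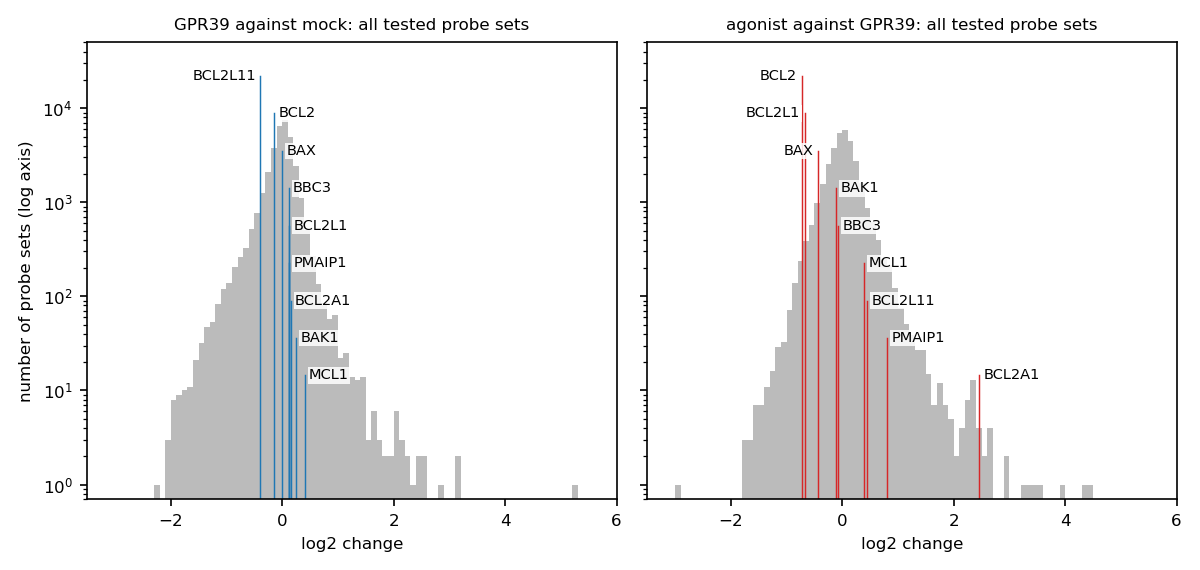
Distribution of the log2 change over all 33376 probe sets tested (grey, counts on a log axis) for GPR39 against mock on the left and agonist against GPR39 on the right, with a vertical line at the change of each of the 9 members; the height of a line has no meaning. In the right panel BCL2A1 lies in the far upper tail, at a fitted 2.46, and the other members lie between -0.73 and 0.81.

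The distribution of changes places the members among all probe sets. Between GPR39 and agonist 2.79% of the probe sets tested moved further than PMAIP1, 3.90% further than BCL2 and 4.98% further than BCL2L1. For BCL2L11, BAX and MCL1 the shares were 13.3%, 13.6% and 16.4%, so these calls rest on small differences with little spread. Arrays of the 2 groups did not overlap for 7 of the 9 members, beside 29.9% of all probe sets.

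Other genes of the death pathway were read from 7 lists of 68 genes, of which 41 have a named probe set and 38 were tested. Of the 9 further BCL2 family genes tested none passed between GPR39 and agonist or between mock and GPR39 in limma, with 5 and 1 at an unadjusted p under 0.05. Their median change from GPR39 to agonist was -0.18. The BH3-only genes BIK and BMF changed by 0.37 and -0.22 in that step, and the effector-like gene BOK by -0.35 (adjusted p = 0.178, 0.324 and 0.0551). From mock to agonist BNIP3, a mitophagy receptor gene, rose by 0.31 and BMF fell by 0.44 (adjusted p = 0.0425 and 0.0475). These calls were lost in 10 and 12 of the 16 alternatives, that of BMF also without mock replicate 1 (-0.35, adjusted p = 0.11).

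At the mitochondrial membrane, VDAC3, a channel of the outer membrane, fell by 0.43 ± 0.06 (SE) from GPR39 to agonist (adjusted p = 0.00432 in limma), 1 of 6 genes tested in its list. APAF1, the scaffold of the apoptosome, fell by 0.44 from mock to agonist (adjusted p = 0.0144), a call lost in 2 of 16 alternatives. The death receptor adaptor genes FADD and TRADD fell by 0.51 ± 0.11 and 0.67 ± 0.17 from GPR39 to agonist (adjusted p = 0.0295 and 0.0441), and they were the 2 genes of their list with a value. The call of FADD was lost in 7 of the 16 alternatives, among them leaving out any 1 GPR39 or agonist array (adjusted p up to 0.102), and that of TRADD in 13 (adjusted p up to 0.138), while that of VDAC3 held in all 16. Of 5 inhibitor-of-apoptosis and related genes none passed in that step in limma, with 2 at an unadjusted p under 0.05, and BIRC2 was 0.38 higher in agonist than in mock (adjusted p = 0.0336), a call lost in 10 of 16 alternatives. The caspase list of 7 genes had no named probe set, so no value is given for it.

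Transcription factors known to act on BCL2 family genes held all 6 rises among the tested pathway genes in the agonist step. Of 13 tested, 6 rose and none fell from GPR39 to agonist, with a median of 0.34, beside 3.12% of all probe sets higher, 5.95% lower and a median of 0.014. The list was drawn up with earlier results of these data known, so these counts are description, not a test. The NF-kB subunit genes REL, NFKB1 and NFKB2 rose by 0.92 ± 0.10, 0.82 ± 0.07 and 0.77 ± 0.09 (largest adjusted p = 0.00213). ATF4, the stress factor that induces PMAIP1, rose by 0.57 ± 0.08 (adjusted p = 0.00455). MYC and JUN, which passed as well, rose by 0.59 and 0.41, and the call of JUN was lost in 6 of the 16 alternatives (adjusted p up to 0.0722). NFKB1 and NFKB2 had also risen from mock to GPR39, by 0.86 ± 0.07 and 0.94 ± 0.09, and were the only 2 of the 38 tested pathway genes called there. Without mock replicate 1, 2 of the 38 were higher and 1 was lower in that comparison. The NF-kB subunit gene RELA changed by 0.17 in the agonist step (adjusted p = 0.362), and the FOXO gene FOXO3 by 0.092 (adjusted p = 0.768). Whether any listed factor acted on the members here, ATF4 on PMAIP1 included, was not tested.

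**Figure D5:**
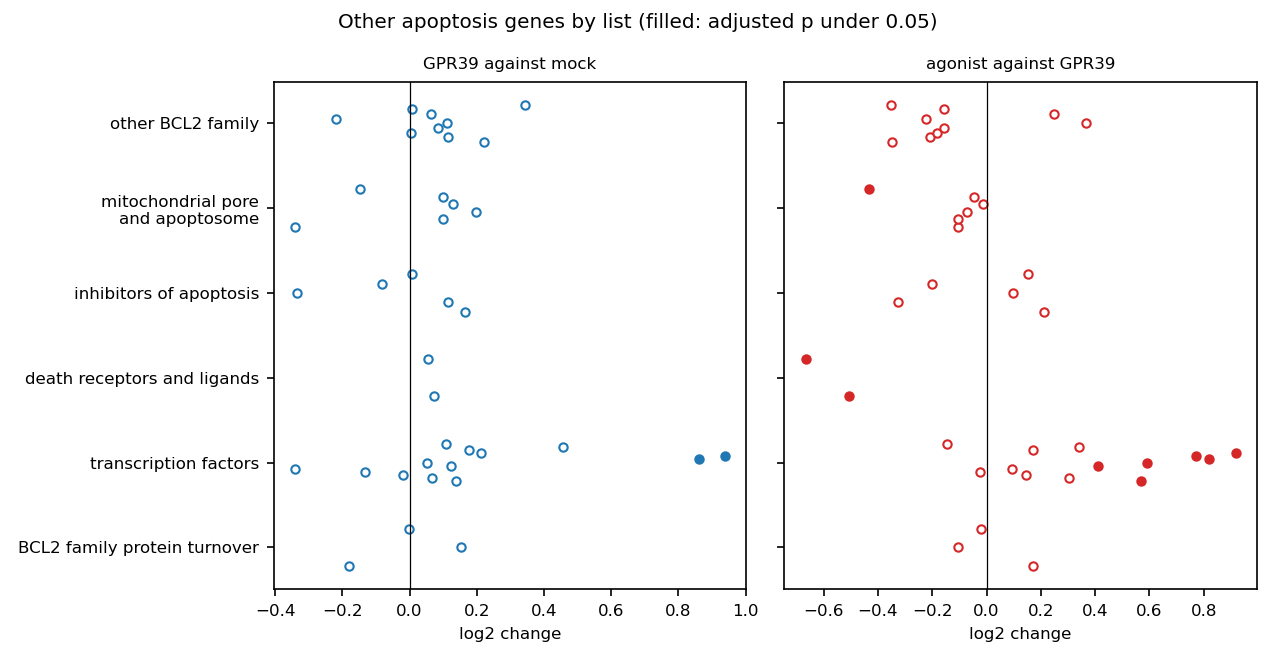
Log2 change of the 38 tested genes of the apoptosis lists, 1 row per list and 1 point per gene, for GPR39 against mock on the left and agonist against GPR39 on the right, with different horizontal scales; filled points have an adjusted p under 0.05. The filled points on the right are 6 transcription factor genes above 0, and VDAC3, FADD and TRADD below 0.

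For each member called, the named genes with the most similar course over the 9 arrays were found by the root mean square difference of profiles centred on their own mean. BCL2A1 was nearest to TM4SF1, a membrane protein gene, at 0.17 log2 units, then to the immediate-early genes EGR1 and FOSB at 0.23 and 0.24. MCL1 was nearest to ASPHD1, FJX1 and CARS1, the cysteinyl-tRNA synthetase gene, at 0.067, 0.071 and 0.074. BCL2L11, low in the GPR39 group, was nearest to the netrin receptor gene UNC5B at 0.049, whose changes in the 2 steps were -0.35 and 0.41, then to BMP8A and the glutamine synthetase gene GLUL. PMAIP1 was nearest to SYAP1, UGDH and RNF24. BCL2 was nearest to AKIP1 at 0.032, then to TPCN2 and THEM4, and BCL2L1 to ERI2, TRUB1 and TOM1L1. BAX was nearest to VAMP3 at 0.039, then to REEP4 and C15orf40. These are descriptions over 9 arrays in 3 groups, in which any genes with like group means come out as neighbours.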

How the data were processed

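Per the submitters' processing notes, MAS5 made the deposited values, whose range shows a log2 scale. The sources used here do not give its version, the background correction, the scaling between arrays or the log step. Probe sets took their gene from the platform annotation, with symbols updated through Entrez identifiers in RefSeq genes (GRCh38.p14), and 16098 of 53617 have a name.

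A probe set was tested if at least 3 of 9 arrays had it above that array's own 40th percentile, which left 33376. The 9 arrays were fitted together with limma 3.58.1 in R 4.3.3 (lmFit, eBayes, 6 residual and 2.12 prior degrees of freedom), two-sided, with Benjamini-Hochberg adjustment over all of these and a threshold of 0.05. Errors of changes are SEs and of levels SDs. The fit was also run on simulated independent normal values, which does not show how the calls behave in these data. Each gene of the pathway lists was read by its brightest tested probe set, and each marker gene by its brightest probe set, tested or not. One pathway gene and a list tied to it are not reported here.

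Members, lists and motifs were chosen with earlier results of these data known. Named were all members, up to 4 genes with the smallest p per list among those past the threshold in any comparison, and the 3 nearest profiles per called member. BIK, BOK, RELA, FOXO3, MYC and JUN were named after their values were seen. Alternatives were other filters, scalings, a replicate block, a fit of 2 groups, an intensity trend and leaving out each array.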

Additional observations from a re-analysis of the deposited data

How the results depend on the processing

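Of 432 values of the 9 genes under the alternatives, 403 kept their direction and side of the threshold, 16 lost a call, 5 gained one and 8 changed sign, all 8 in changes that did not pass. The filters, the block, the fit of 2 groups and the intensity trend leave a fitted change as it is. So does leaving out an array of the group not compared. In these alternatives the direction could not change and only the adjusted p could move. BAX from mock to GPR39 turned from -0.0016 to 0.055 with centring on the 75th percentile and 0.0090 with quantile normalization, and ran from -0.065 to 0.076 with 1 array left out, above 0 without mock replicate 1 or GPR39 replicate 2. BCL2A1 in that comparison ran from -0.018, without GPR39 replicate 1, to 0.32. With 1 array left out BBC3 ran from -0.16 to 0.014, the latter without GPR39 replicate 1, for agonist against GPR39, and for agonist against mock from -0.041, without agonist replicate 2, to 0.11. BCL2L11 ran from -0.014, without agonist replicate 3, to 0.082 for agonist against mock.

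Leaving out 1 array gave 4 to 7 members called for agonist against GPR39, 5 to 6 for agonist against mock and 0 to 2 for GPR39 against mock, where the stricter filter called 2 (MCL1 and BCL2L11) and the intensity trend 1 (MCL1). Over all probe sets, leaving out 1 array moved the calls from 3025 to between 1509 and 3119, from 5022 to between 3493 and 4947, and from 391 to between 108 and 1323, in the same order. GPR39 against mock gave 637 with the stricter filter, 190 with only the 2 groups and 670 with the intensity trend, and agonist against mock gave 3133 with only the 2 groups. Centring on the 75th percentile raised the share of higher calls from 63.9% to 74.7% for GPR39 against mock and from 40.6% to 56.2% for agonist against mock. Leaving out 1 array gave shares from 31.4%, without mock replicate 1, to 80.6% for GPR39 against mock, so most calls were lower without that array. The cause was not tested.

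The replicate number as a block gave 150 calls for GPR39 against mock, 1819 for agonist against GPR39 and 5 members in the latter, without MCL1 and BAX (adjusted p = 0.0565 and 0.0715). Deviations of same-numbered arrays correlated between -0.10 and 0.06 in 9 pairs, and 2 of 9 arrays correlated best with an array of its own number, so the arrays share only a number. Each member has 1 probe set, so averaging probe sets changed nothing and was not run. Applied after seeing the data, the 16 alternatives also covered the 38 pathway genes tested. From GPR39 to agonist 6 were higher and 3 lower, with ranges of 5 to 7 and 1 to 4, and the lower count was 1 without any 1 GPR39 array, without agonist replicate 2 or with the block. From mock to agonist 9 were higher and 5 lower, with ranges of 7 to 11 and 1 to 6, and the lower count moved by over 1.5 times in 12 of the 16. From mock to GPR39 2 were higher and none lower, with ranges of 2 to 3 and 0 to 1.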
